A study of Mus musculus with 29 samples.

Results

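DNA methylation (DNAm) was measured over 10 genes that build the junctions and the barrier of epithelial sheets, namely Cdh1, Epcam, Cldn3, Cldn4, Cldn7, Cldn18, Tjp1, Ocln, Krt8 and Krt18. Every window that the deposited table of genic windows named for 1 of these genes was taken, which gave 115 windows of 260686 in all. A window is a stretch of genome with a single methylation percentage (%DNAm) per library in the deposited table. Tjp1 contributed 52 windows, Cdh1 18, Ocln 13, Cldn18 8, Epcam 7, Krt8 5, Cldn7 4, Cldn3 3, Krt18 3 and Cldn4 2.

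The DNA came from the lungs (labelled RML) of 13-week-old female Balb/c mice and methylation was read across the genome by an enzymatic form of methyl-sequencing (WGMS), where cytosines without a methyl group are converted by enzymes and so read differently. The dams had received intranasal saline (Sham) or fine particulate matter (PM) before mating and through gestation and weaning. The offspring were then sensitised and challenged with ovalbumin (OVA), an egg protein that induces allergic airways disease, or received nebulised saline as controls. Whether the controls were sensitised is not clear from the methods. By the study, the lungs were profiled after lung function tests with methacholine, and airway lavage directly followed these tests. There were 7 libraries each of Sham, PM and Sham-OVA and 8 of PM-OVA, and no engineered allele is named for any of them. The comparisons address how OVA challenge and the exposure of the dam relate to methylation at these genes. Nothing beyond the labels tells whether the replicates of a group came from separate litters, so the p-values measure the spread between these libraries only. The table gives neither counts nor coverage, so the depth behind a single percentage is unknown (the libraries themselves were, by the methods, sequenced to high coverage), and the number of libraries limits the precision.

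Epithelial cells are held together by adherens junctions, in which the cadherin encoded by Cdh1 binds its like on the next cell, and are sealed by tight junctions, in which claudins and occludin span the membrane and the scaffold encoded by Tjp1 ties them to actin. Keratins 8 and 18 pair into the filaments of simple epithelia, and Epcam is an adhesion molecule of the same cells. In mammalian genomes most CpGs are methylated, whereas CpG-rich promoters are usually free of methylation.

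The stretch just upstream of the principal transcript start is printed for 5 genes whose start windows ranged from unmethylated to mostly methylated, both keratins among them, so that their CpG content can be read. Each line holds 250 bases of the RefSeq GRCm38.p6 genome, 5′ to 3′ on the strand of the gene, with every CpG in capitals. Cldn3 lies at chr5:134985964-134986213 (plus strand), Cldn4 at chr5:134946935-134947184 (minus), Tjp1 at chr7:65371240-65371489 (minus), Krt8 at chr15:102004483-102004732 (minus) and Krt18 at chr15:102027930-102028179 (plus).
Cldn3: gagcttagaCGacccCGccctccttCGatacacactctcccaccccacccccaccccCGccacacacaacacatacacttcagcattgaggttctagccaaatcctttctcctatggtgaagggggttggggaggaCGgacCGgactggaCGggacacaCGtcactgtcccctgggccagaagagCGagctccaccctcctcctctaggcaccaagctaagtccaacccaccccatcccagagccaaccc
Cldn4: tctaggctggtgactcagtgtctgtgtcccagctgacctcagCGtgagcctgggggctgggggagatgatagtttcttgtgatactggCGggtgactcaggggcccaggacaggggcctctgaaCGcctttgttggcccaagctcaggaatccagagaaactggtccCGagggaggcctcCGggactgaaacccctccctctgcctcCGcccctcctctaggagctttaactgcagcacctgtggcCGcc
Tjp1: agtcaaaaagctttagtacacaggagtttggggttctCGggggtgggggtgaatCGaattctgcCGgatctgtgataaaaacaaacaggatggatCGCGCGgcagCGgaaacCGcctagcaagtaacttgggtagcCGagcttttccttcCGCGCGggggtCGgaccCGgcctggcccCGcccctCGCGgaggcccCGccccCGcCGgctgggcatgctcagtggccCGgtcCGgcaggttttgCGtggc
Krt8: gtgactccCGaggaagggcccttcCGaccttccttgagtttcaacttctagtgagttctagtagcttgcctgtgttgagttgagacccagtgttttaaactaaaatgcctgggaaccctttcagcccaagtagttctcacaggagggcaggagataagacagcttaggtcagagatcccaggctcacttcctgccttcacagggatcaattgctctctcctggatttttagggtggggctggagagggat
Krt18: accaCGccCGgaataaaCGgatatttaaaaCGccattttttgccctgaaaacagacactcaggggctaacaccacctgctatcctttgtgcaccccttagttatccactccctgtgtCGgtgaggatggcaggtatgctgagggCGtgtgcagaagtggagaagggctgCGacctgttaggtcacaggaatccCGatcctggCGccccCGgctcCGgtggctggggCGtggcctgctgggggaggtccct
The Tjp1 stretch held 23 CpGs, Krt18 12, Cldn3 9, Cldn4 7 and Krt8 2. Read against the methylation of the windows around them in Sham lungs, the CpG-rich Tjp1 stretch lay across window 37 at 1.20% and, farther upstream, window 36 at 37.7%. The start windows of the others were at 6.81% in Cldn3, 25.8% in Krt18, 45.6% in Krt8, whose printed stretch was CpG-poor, and 70.1% in Cldn4. The 300-base RefSeq promoter of Krt8, which reaches farther downstream, held 6 CpGs, beside a median of 7 over all RefSeq promoters. RefSeq promoters of 300 bases were matched for 9 of the 10 genes (not Cdh1), 12 promoters in all, and were searched on both strands for 3 motifs, none of which contains another. CACCTG, an E-box that Snail and Zeb repressors can bind, was held by the Epcam, Cldn3, Cldn4, Ocln, Krt8 and Krt18 promoters and by the internal Cldn7 promoter, against 20.2% of 32851 promoters. GGGCGG, a GC box, was held by the Epcam, Cldn3, Cldn4, Tjp1 and Ocln promoters and by the internal Cldn7 promoter, against 35.7% of all. AACCGGTT, a sequence that Grainyhead-like factors can bind, was found in none of the 12 and in 0.146% of all promoters. The CACCTG matches of Krt8 and Cldn3 lie downstream of their printed stretches. All these matches describe letters only.

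All 115 windows had a value in all 29 libraries and were tested. Windows hold a near-constant number of CpGs, with a median of 100 CpG cytosines counted over both strands, so that a short window is CpG-dense, and they were 306 to 9095 bp long (median 3996 bp). Of the 115, 60 overlapped an exon and 9 overlapped another annotated gene. One further window over the 3′ end of Cldn4 was named for Mettl27 in the table and was not counted here. The 12 windows shorter than 1000 bp had Sham means of 0.372% to 6.35%, and the 103 longer ones 6.81% to 89.2% (median 73.5%). The median SD among the Sham libraries was 1.61 percentage points. Windows are numbered below from the annotated start of a gene to its end.

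The windows that hold the annotated gene start spanned the whole scale. In Sham lungs they had a mean of 0.372% in Ocln, 0.989% in Tjp1, 1.59% in Cdh1, 3.64% in Epcam and 6.81% in Cldn3. They were higher in Krt18 (25.8%), Krt8 (45.6%), Cldn7 (57.1%), Cldn4 (70.1%) and Cldn18 (83.3%). In Cldn7, the next window, which holds an internal RefSeq start, was at 6.35%. The lowest window of Cldn18, a claudin of alveolar epithelium, was at 66.6%, so that none of its 8 windows was free of methylation in whole lung.

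**Figure D1:**
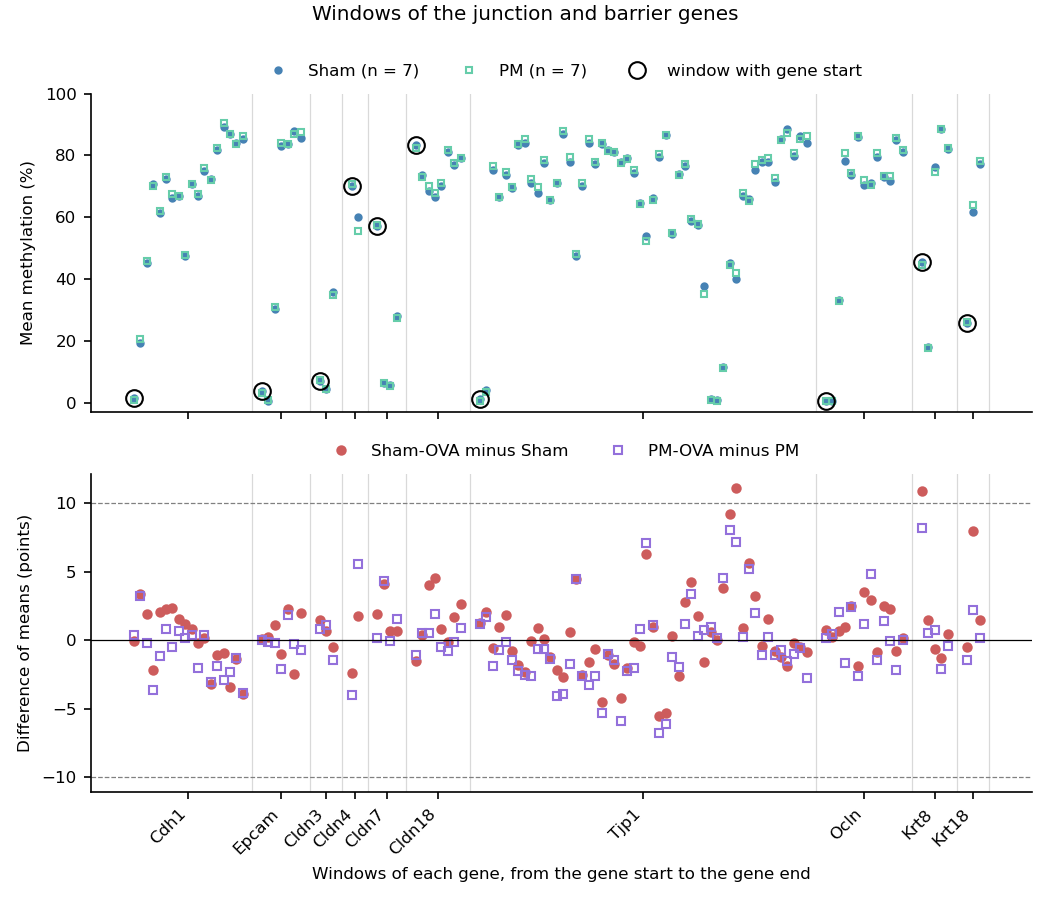
The upper panel plots the mean %DNAm of each of the 115 windows in Sham (filled circles, n = 7) and PM (open squares, n = 7), by gene, with a ring around the window that holds the gene start. The lower panel plots the difference of group means in percentage points for Sham-OVA minus Sham and PM-OVA minus PM, with dashed lines at 10 points; the 2 Sham values above the upper line are Tjp1 window 41 and Krt8 window 1.

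As a check of the tissue, the lowest windows of 15 other lung epithelial genes in Sham lungs ran from 0.366% (Hopx) to 77.7% (Scgb3a2). Markers of single epithelial cell types lay at both ends, with Abca3 at 0.510%, Foxj1 at 5.35% and Napsa at 12.1%, and Sftpc at 44.9%, Ager at 71.2%, Lamp3 at 71.9% and Scgb1a1 at 72%. The lowest windows of 6 liver genes ran from 24.6% (Apoa1) to 83.6% (Ttr). Leukocyte, endothelial and fibroblast genes had windows as low, such as Ikzf1 (0.208%), Egfl7 (0.362%) and Pdgfra (0.449%), so these levels do not single out a cell type. One Sham library (replicate 1) had values in 1224 of 1230 Y-chromosome windows, against 29 to 46 in the other 28 libraries, although female offspring were profiled. Without that library, 38 member windows passed the threshold for OVA in Sham and 43 for OVA in PM, with 2 and 0 regions past the size limit. Methylation of whole lung averages over its cells, so a change in the share of a cell type and a change within cells cannot be told apart.

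OVA challenge went with methylation changes in both directions over these genes. In Sham offspring 35 of the 115 windows changed (adjusted p under 0.05, limma with Benjamini-Hochberg adjustment over 259167 windows), 22 higher and 13 lower after OVA. That is 30.4% of the member windows, against 35.6% of all windows tested. The higher windows made up 19.1% of the members against 13.3% of all windows, and the lower ones 11.3% against 22.3%. In PM offspring 42 windows changed, 18 higher and 24 lower, which is 36.5% against 44.1% of all windows. The higher ones were 15.7% against 9.26%, and the lower ones 20.9% against 34.8%. Over the members the median difference after OVA was 0.307 points (Sham) and -0.188 points (PM), beside -0.414 and -1.03 points over all windows. Since OVA moved the median log2 ratio of all windows by -0.042 in Sham and -0.0957 in PM, the split depends on that shift. Each library was also centred on the median deviation of its windows from their means over the libraries. Then 35 of 47 called member windows were higher in Sham (74.5% in place of 62.9%) and 30 of 43 in PM (69.8% in place of 42.9%), beside 50.7% and 50.3% of all called windows. The higher member windows were then 30.4% and 26.1% of the members, against 18.3% and 18.9% of all windows. Centring shifts every window of a library alike, whatever its level. The median OVA difference of all windows was -0.72 points (Sham) and -1.4 points (PM) at levels of 60% and over. Under 20% it was 0.143 and 0.0766 points, so centring raises such windows by a shift not seen there.

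A differentially methylated region (DMR) was a window that also differed by at least 10 percentage points between group means. The members held 2 DMRs for OVA in Sham, both higher, in Krt8 and Tjp1 (1.74% of members), and 0 at the stricter adjusted p threshold of 0.000001. Of all windows 0.775% were DMRs for OVA in Sham, 0.479% higher and 0.296% lower. For OVA in PM the members held 0 DMRs, against 0.584% of all windows, 0.263% higher and 0.321% lower. The Sham and PM comparisons share no library, but their p-values share 1 estimate of the spread per window, taken over all 29 libraries. Of the 115 windows, 25 passed the threshold in both with the same sign, 14 higher and 11 lower, and 0 passed with opposite signs. These 25 were 21.7% of the members, 71.4% of the Sham calls and 59.5% of the PM calls, shares no higher than the 27.3%, 76.7% and 61.9% over all windows. The difference had the same direction in 92 of 115 windows (80%), beside 81.8% of all windows.

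**Figure D2:**
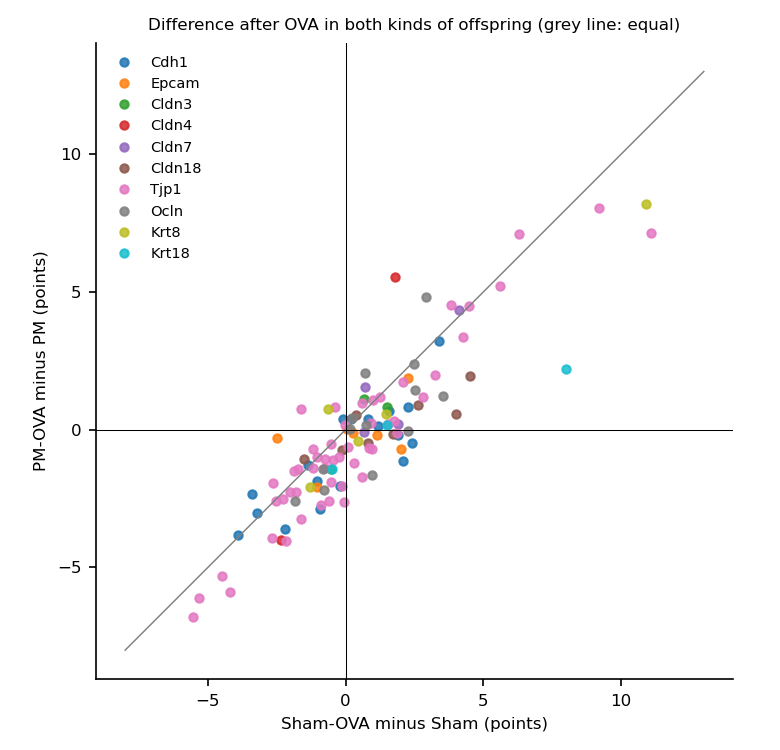
Each point is 1 of the 115 windows, with the difference Sham-OVA minus Sham on the x axis and PM-OVA minus PM on the y axis, both in percentage points and coloured by gene. Most points lie near the grey line of equal differences; Krt18 window 2 (7.99 and 2.22 points) and Cldn4 window 2 (1.80 and 5.56 points) lie farther from it.

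Windows that started low or intermediate rose where they changed, and those that fell had started at 60% or over. The windows were put into classes, chosen after their values were seen, by the mean of the other unchallenged group, so that the level and the difference came from different libraries. Among windows under 20%, 6 of 15 rose and 0 fell after OVA in Sham, and 8 of 16 rose and 0 fell in PM. Among windows of 20% to 60%, 7 of 19 rose in Sham and 7 of 18 in PM, and again 0 fell. Among those of 60% and over, 9 of 81 rose and 13 fell in Sham, while 3 rose and 24 fell in PM. With libraries centred this last class had 19 higher and 12 lower windows in Sham and 11 higher and 13 lower in PM, whereas 0 windows under 60% were called lower in either comparison. Over all tested windows the share that rose was 20.1%, 25.7% and 11% in these classes in Sham and 17.6%, 20.8% and 6.90% in PM, and the share that fell was 4.46%, 12.4% and 25.4% in Sham and 5.63%, 16.9% and 40.2% in PM. With libraries centred, 15.8% of all windows of 60% and over were higher and 20.5% lower in Sham, and 15.4% and 22% in PM.

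Cdh1 encodes E-cadherin, the adhesion receptor of epithelial adherens junctions. Its 18 windows ran from an unmethylated start to 89.2%, with 1 window higher and 3 lower after OVA in Sham and 1 higher and 6 lower in PM. With libraries centred these counts were 5 higher and 3 lower in Sham and 2 higher and 2 lower in PM. The start window (chr8:106603349-106603974) averaged 1.59% in Sham and 1.51% in Sham-OVA and did not pass the threshold in either comparison, except in PM with libraries centred (adjusted p = 0.0451, limma). The next window, just inside the gene, rose from 19.3% ± 1.85 (SD, n = 7) to 22.7% ± 1.86 in Sham (adjusted p = 0.00654, limma) and from 20.5% ± 1.92 to 23.7% ± 1.83 in PM (0.00728). It was 1 of the windows chosen after their values were seen. The largest difference was at the other end of the gene, in window 18 (chr8:106668524-106671922, 3399 bp, over the last exon and its 3′ UTR). There the Sham libraries had a lowest, median and highest value of 84.2%, 85.4% and 87.7%, and the Sham-OVA libraries 78.6%, 81.8% and 85.2%. The PM libraries had 83.3%, 86.3% and 87.4%, and the PM-OVA libraries 80.7%, 82.6% and 84.1%. The ranges overlapped in both comparisons, with 6 of 7 Sham-OVA libraries below every Sham library and 7 of 8 PM-OVA libraries below every PM library. The mean fell by 3.92 points in Sham (log2 ratio -0.39, SE 0.0798, adjusted p = 0.000415, limma) and fell by 3.82 points in PM (log2 ratio -0.40, SE 0.0773, adjusted p = 0.000146).

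Epcam encodes a homophilic adhesion molecule of epithelial cells. Its start window (chr17:87635870-87636694) had a mean of 3.64% in Sham, 3.71% in Sham-OVA, 3.19% in PM and 3.22% in PM-OVA, and window 2 stayed under 1% in every group mean. In Sham 1 of its 7 windows rose and 1 fell, and in PM 0 of 7 passed the threshold (2 higher and 1 lower, and 1 higher and 0 lower, with libraries centred). Of all windows 35.6% passed in Sham and 44.1% in PM, and 7 windows are too few to set against these shares. Window 5, with the largest mean difference, was 2.28 points higher in Sham-OVA and 1.87 points higher in PM-OVA (adjusted p = 0.0816 and 0.137, limma), and passed with libraries centred (0.0366 and 0.0264). In Sham 4 of 37 alternatives gained the call, that one included.

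The claudins form the paracellular seal, and Cldn3, Cldn4, Cldn7 and Cldn18 are all found in lung epithelium. Cldn7 rose after OVA in both kinds of offspring in a lowly methylated window next to the gene start. This window 2 of Cldn7 (chr11:69964974-69965684, 711 bp, almost wholly exonic and overlapping annotated UTR) ran from 5.03% to 7.80% in Sham (median 6.45%) and from 7.13% to 13.7% in Sham-OVA (median 10.3%). In PM it ran from 4.53% to 7.76% (median 6.04%) and in PM-OVA from 7.94% to 15.5% (median 10.3%). All 8 PM-OVA libraries lay above every PM library, and 6 of 7 Sham-OVA libraries above every Sham library. The rise was 4.11 points in Sham (log2 ratio 0.70, SE 0.14, adjusted p = 0.000306, limma) and 4.33 points in PM (log2 ratio 0.74, SE 0.136, adjusted p = 8.39e-05). Window 1 of Cldn7, which holds the annotated gene start, was 1.90 points higher in Sham-OVA and 0.203 points higher in PM-OVA and did not pass (adjusted p = 0.0931 and 0.866, limma), although 3 of 37 alternatives gained the Sham call (lowest adjusted p = 0.0171).

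Cldn3 and Cldn4 lie near each other on chromosome 5 and differed in level. The Cldn3 start window rose from 6.81% ± 1.01 to 8.30% ± 1.10 in Sham (adjusted p = 0.0196, limma). It was 0.835 points higher in PM-OVA than in PM (0.170), and passed there with libraries centred (0.0341). The Sham call was lost without Sham replicate 7 (0.0512) or without Sham-OVA replicate 3 (0.0518). Window 2 of Cldn3, wholly exonic and chosen after its values were seen, rose from 4.52% ± 0.687 to 5.63% ± 0.863 in PM (adjusted p = 0.00984, limma, and 0.001255 with libraries centred), and was 4.38% ± 0.377 in Sham and 5.04% ± 0.718 in Sham-OVA (0.137). In Cldn4 the start window, mostly upstream of the gene, fell from 70.7% ± 1.27 to 66.7% ± 1.84 in PM (adjusted p = 0.000825, limma) and differed by -2.35 points between Sham-OVA and Sham (0.0519), where 10 of 37 alternatives gained the call (adjusted p of 0.0147 to 0.1325 over all of them). Window 2 of Cldn4 (chr5:134945822-134946891), wholly exonic, moved the other way. It ran from 47.8% to 63.5% in PM (median 54.3%) and from 54.8% to 68.2% in PM-OVA (median 60.3%), with a rise of 5.56 points (adjusted p = 0.0369, limma). In Sham it ran from 55.8% to 65.0% (median 60.7%) and in Sham-OVA from 58.0% to 65.4% (median 61.3%), a difference of 1.80 points (0.554). These ranges overlapped widely, and the PM call was lost when any of 8 libraries was left out, namely PM replicate 2, 3, 4 or 7 or PM-OVA replicate 1, 2, 5 or 8 (highest adjusted p = 0.105), with the replicate block (0.0558), with the spread taken from the PM and PM-OVA libraries alone and at the stricter threshold of 0.000001.

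In Cldn18, 2 windows passed the threshold in Sham and 0 in PM (4 and 1 with libraries centred, all higher), and a difference between Sham and PM was not shown. Window 3, which overlaps the internal start, was 4.00 points higher in Sham-OVA and 0.560 points higher in PM-OVA (adjusted p = 0.0111 and 0.732, limma). Window 4 next to it rose from 66.6% ± 2.38 to 71.1% ± 3.34 in Sham (0.00865, limma), and was 67.8% ± 2.40 in PM and 69.7% ± 1.97 in PM-OVA (0.232, and 0.0234 with libraries centred). The interaction for window 4 was -2.56 points (adjusted p = 0.763). Its upstream start window averaged 83.3% in Sham and 81.8% in Sham-OVA, with no call.

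Tjp1 encodes ZO-1, the scaffold that ties claudins and occludin to actin, and it is the longest of these genes at 231617 bp. It has an upstream start and a principal start well inside the gene. The study's cell-type lists place Tjp1 among genes selectively expressed in endothelial cells, so its windows are not particular to epithelium. In Sham 11 of the 52 Tjp1 windows rose and 8 fell, and in PM 11 rose and 14 fell. Of all windows 13.3% rose and 22.3% fell in Sham, and 9.26% rose and 34.8% fell in PM. With libraries centred 13 were higher and 7 lower in Sham, and 13 higher and 9 lower in PM. Methylation was near 0 at both starts. Window 1, at the upstream start, was 0.989% ± 0.629 in Sham and 2.25% ± 0.934 in Sham-OVA (adjusted p = 0.00648, limma) and 0.593% ± 0.530 in PM and 1.79% ± 0.606 in PM-OVA (0.00107). Windows 37 and 38, at the principal start, stayed under 2% in every group mean. Window 37 was 0.586 points higher in Sham-OVA (adjusted p = 0.219, limma, and 0.0282 without Sham replicate 1, its highest library at 4.00%) and 0.983 points higher in PM-OVA. That PM call (adjusted p = 0.0355, limma) was lost without PM replicate 5 or 7, without PM-OVA replicate 3, 7 or 8, without both PM-OVA replicates 7 and 8 (0.131, the highest), with the replicate block, on the percent scale and at the stricter threshold of 0.000001.

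The Tjp1 DMR lay in the intron downstream of the principal start. It was window 41, the gene's largest rise in Sham, whereas window 40 rose more in PM. Window 41 (chr7:65355439-65362346, 6908 bp, no exonic base, its middle 12347 bp downstream of that start) ran from 35.8% to 43.9% in Sham (median 39.3%) and from 50.2% to 51.9% in Sham-OVA (median 51.2%). It ran from 37.8% to 47.3% in PM (median 41.1%) and from 43.3% to 53.6% in PM-OVA (median 49.5%). The Sham and Sham-OVA libraries did not overlap, and 6 of 8 PM-OVA libraries lay above every PM library. The difference was 11.1 points in Sham, a DMR (log2 ratio 0.64, SE 0.0916, adjusted p = 5.2e-06, limma), and 7.14 points in PM (log2 ratio 0.41, SE 0.0887, adjusted p = 0.000505). The windows between it and the start rose as well. Window 40 rose by 9.20 and 8.04 points (adjusted p = 6.56e-05 and 0.000155, limma), and it overlaps the annotated gene Gm44794. Window 39, next to the unmethylated start, rose from 11.6% ± 1.29 to 15.4% ± 0.486 in Sham and from 11% ± 0.967 to 15.6% ± 2.17 in PM, with no overlap in either comparison. Farther along, window 43 rose by 5.61 and 5.22 points.

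The windows between both Tjp1 starts held rises and falls side by side. Window 27 rose by 6.30 points in Sham and 7.12 points in PM, from 53.9% and 52.3% (adjusted p = 0.00038 and 5.49e-05, limma), and window 16 rose by 4.48 points in both. Window 30 (chr7:65397676-65404976, 7301 bp, no exon of Tjp1, overlapping Gm44795) was highly methylated and fell in both comparisons. It ran from 86.0% to 87.6% in Sham (median 86.5%), from 78.7% to 84.2% in Sham-OVA (median 80.6%), from 85.6% to 87.6% in PM (median 86.4%) and from 77.9% to 82.0% in PM-OVA (median 81.0%). Neither pair of groups overlapped. The mean fell by 5.32 points in Sham (log2 ratio -0.54, SE 0.0689, adjusted p = 1.02e-06, limma) and fell by 6.13 points in PM (log2 ratio -0.61, SE 0.0667, adjusted p = 5.94e-08). Window 29 beside it fell by 5.52 points in Sham and fell by 6.79 points in PM, and window 23 fell by 4.18 points in Sham and fell by 5.88 points in PM, also without overlap in either comparison. Windows 2, 16, 23, 27, 29, 30, 37 to 40 and 43 were chosen after their values were seen.

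**Figure D3:**
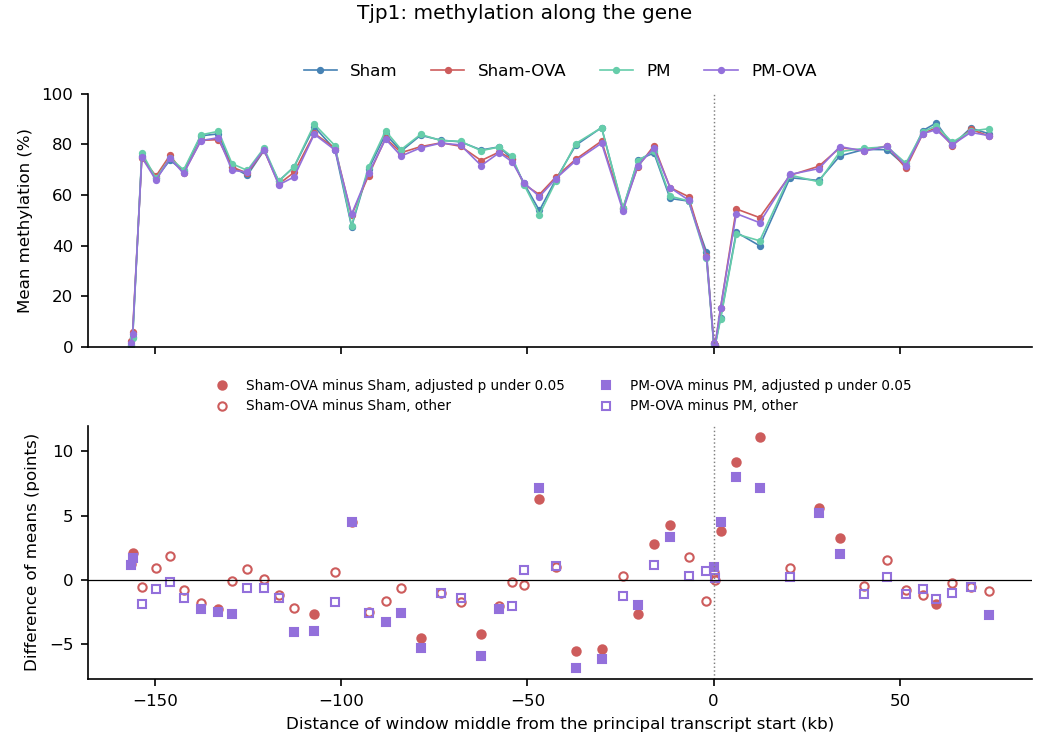
The upper panel plots the mean %DNAm of the 52 Tjp1 windows in the 4 groups against the distance of the window middle from the principal transcript start in kb. The lower panel plots the difference after OVA in percentage points, filled where the adjusted p was under 0.05; rises of 3.83 to 11.1 points in Sham stand in windows 39 to 41 just downstream of the start, and differences of -5.32 and -5.52 points in windows 30 and 29 upstream of it.

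Ocln encodes occludin, a membrane protein of the tight junction strand. Of its 13 windows 3 rose and 1 fell in Sham, and 2 rose and 2 fell in PM. With libraries centred 5 were higher and 1 lower in Sham, and 6 higher and 1 lower in PM. Its start window (chr13:100552341-100553108) was 0.372% ± 0.15 in Sham and 1.11% ± 0.46 in Sham-OVA, with 6 of 7 libraries above every Sham library (adjusted p = 0.00113, limma), and 0.547% ± 0.308 in PM and 0.707% ± 0.276 in PM-OVA (0.385). Inside the gene, window 8 ran from 67.5% to 73.6% in Sham (median 71.3%), from 72.6% to 75.4% in Sham-OVA (median 74.3%), from 66.3% to 73.5% in PM (median 70.8%) and from 71.5% to 78.9% in PM-OVA (median 75.4%). The groups overlapped in both comparisons. The rise was 4.81 points in PM (adjusted p = 0.000751, limma) and 2.93 points in Sham (0.0460), the latter lost when any 1 of 12 libraries was left out (highest adjusted p = 0.110) and with the replicate block (0.0568). Window 7, chosen after its values were seen, was 3.54 points higher in Sham-OVA without overlap (adjusted p = 0.0140, limma) and 1.23 points higher in PM-OVA (0.348, and 0.0323 with libraries centred).

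Krt8 and Krt18 encode the keratin pair of simple epithelia and lie near each other on chromosome 15. Krt8 held the second DMR, and it covered the gene start. Window 1 (chr15:102003628-102005856, 2229 bp, from 1374 bp upstream of the start into the first exon and intron, overlapping Gm36026) ran from 43.4% to 48.5% in Sham (median 45.6%) and from 54.4% to 59.1% in Sham-OVA (median 56.7%). It ran from 40.7% to 48.6% in PM (median 44.8%) and from 46.5% to 58.7% in PM-OVA (median 52.2%). All 7 Sham-OVA libraries lay above every Sham library, and 7 of 8 PM-OVA libraries above every PM library. The mean rose by 10.9 points in Sham (log2 ratio 0.62, SE 0.0791, adjusted p = 1.01e-06, limma) and by 8.18 points in PM (log2 ratio 0.47, SE 0.0766, adjusted p = 2.13e-05). The other 4 Krt8 windows, among them the less methylated window 2 directly downstream (18% in Sham), gave 1 call, in window 4 in PM, which fell by 2.10 points and was not called with libraries centred. Over the 29 libraries the windows of other genes most like Krt8 window 1 lay in Rgs14 (Pearson r = 0.896), Lpar5 (0.895) and Tnfrsf13b (0.893), out of 258388 windows compared. These points share the contrast of challenged and unchallenged libraries, and the values are given as a description.

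In Krt18 the rise was not at the start but in the next window. Its start window (chr15:102026860-102028469) had means of 25.8%, 25.3%, 26.1% and 24.7% in Sham, Sham-OVA, PM and PM-OVA and passed in neither comparison. Its Sham log2 ratio turned to the other sign with libraries centred, whereas the difference in points stayed negative (-0.0911). In PM-OVA 7 of 8 libraries lay below every PM library (adjusted p = 0.0579, limma), and 4 of 37 alternatives gained the call (lowest adjusted p = 0.0226), whereas with libraries centred the adjusted p was 0.866. Window 2, directly downstream and including 610 exonic bases, ran from 54.5% to 66.0% in Sham (median 62.6%) and from 66.3% to 74.3% in Sham-OVA (median 69.8%), without overlap. In PM it ran from 58.9% to 68.1% (median 63.5%) and in PM-OVA from 63.8% to 68.7% (median 66.0%), with wide overlap. The rise was 7.99 points in Sham (log2 ratio 0.50, SE 0.0924, adjusted p = 0.000123, limma), and the PM difference was 2.22 points (log2 ratio 0.14, SE 0.0895, adjusted p = 0.223, and 0.0494 with libraries centred).

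**Figure D4:**
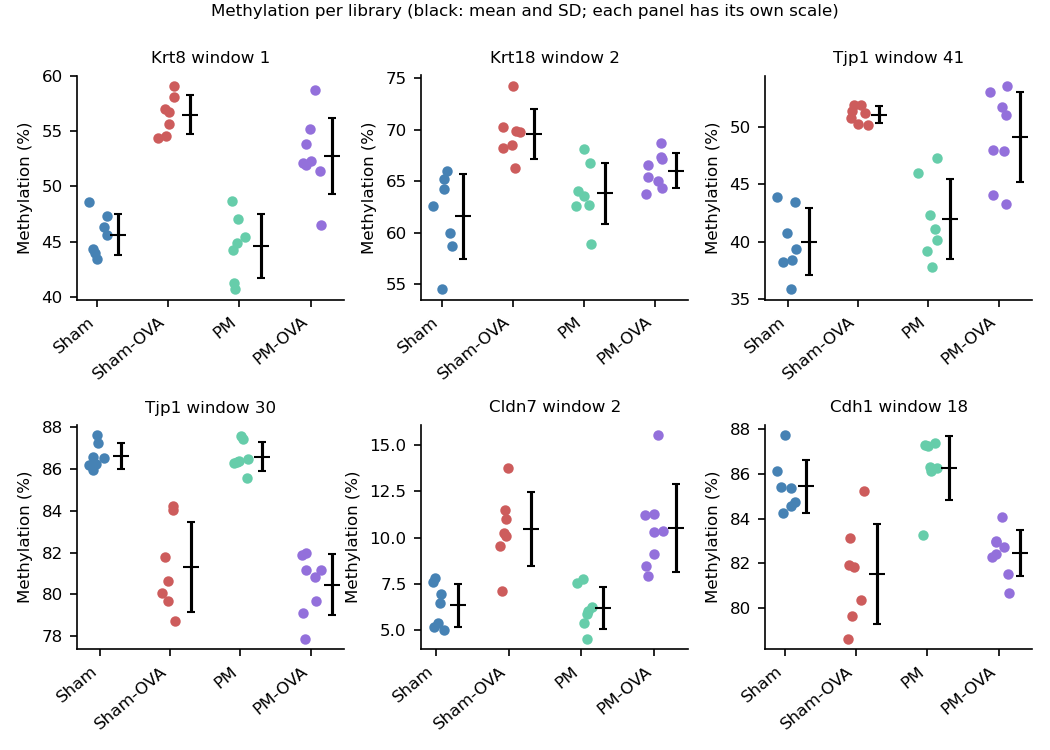
Each point is the %DNAm of 1 library for 6 windows, by group, with the mean and SD in black; every panel has its own scale, which does not start at 0. Krt8 window 1, Krt18 window 2 and Tjp1 window 41 separate Sham-OVA from Sham, and Tjp1 window 30 separates both OVA groups from their controls in the downward direction.

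Exposure of the dam to PM gave 0 member windows past the adjusted threshold without OVA, 0 with OVA and 0 for the interaction, and 0% of all windows in each (limma). At an unadjusted p under 0.05, 7 of 115 windows differed without OVA (6.09%, against 5.79% of all windows), 6 of them higher in PM. With OVA 5 differed (4.35% against 5.96%), 0 of them higher in PM-OVA. For the interaction, the difference between the OVA effect in PM and that in Sham, 11 did (9.57% against 7.40%), of which 1 was positive. Differences over all tested windows leaned the same way, with 64.8% higher in PM without OVA, 33.2% higher in PM-OVA with OVA and 28.4% positive for the interaction. The smallest p without OVA was for Ocln window 4, in an intron, where the PM libraries ran from 78.5% to 82.1% and the Sham libraries from 76.3% to 81.2% (unadjusted p = 0.000842, adjusted p = 0.724, limma). With OVA it was for Krt8 window 1, with means of 52.8% in PM-OVA and 56.5% in Sham-OVA (0.00886, adjusted p = 0.816, limma). For the interaction it was for Krt18 window 2, with an interaction of -5.77 points (unadjusted p = 0.00827, adjusted p = 0.582, limma). A difference between Sham and PM offspring was thus not shown for any of these windows.

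Other genes of the junction machinery gave the wider setting. A list of 40 further genes held tight junction, adherens junction and desmosome genes, polarity genes such as Pard3 and Patj, keratins (Krt7 and Krt19) and regulators of epithelial identity (Grhl2, Esrp1 and Esrp2). Of these 39 had windows, 596 in all, of which 104 lay in Pard3. In Sham 96 rose and 149 fell, and in PM 66 rose and 231 fell, which is 41.1% and 49.8% called against the 35.6% and 44.1% of all windows. With libraries centred 127 of 256 calls were higher in Sham and 131 of 284 in PM, beside 50.7% and 50.3% of all calls. The list held 10 DMRs in Sham and 7 in PM, each of them higher after OVA (1.68% and 1.17% of its windows, against 0.479% and 0.263% of all windows that were DMRs and higher). The largest was in Jup, which encodes plakoglobin of adherens junctions and desmosomes (chr11:100387754-100391386), where the mean rose from 29.6% ± 3.00 to 49.98% ± 5.47 in Sham and from 31.5% ± 4.68 to 49.3% ± 5.01 in PM. Ctnnd1, which encodes the p120 catenin that holds E-cadherin at the surface, rose from 30.7% ± 1.88 to 47.1% ± 4.43 and from 32.9% ± 3.5 to 46.8% ± 2.55. Tjp3, a relative of Tjp1, rose by 13.5 and 11 points, and F11r, which encodes the junctional adhesion molecule JAM-A, by 12.5 and 10.2 points. Jup, Ctnnd1 and F11r are also used by endothelium or blood cells.

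Of the 5 marker lists of other cells, only the leukocyte list had mean levels that separated challenged from unchallenged libraries. Over the 146 windows of 20 leukocyte genes, the mean level per library ran from 68.9% to 70.1% in Sham and from 66.4% to 68.1% in Sham-OVA, and from 69.3% to 70.5% in PM and from 66.3% to 67.3% in PM-OVA, without overlap. In Sham 30 of these windows rose and 63 fell, and in PM 20 rose and 71 fell, with 21 DMRs in each, of which 20 were lower. Of 84 windows of 15 other lung epithelial genes, 31 rose and 3 fell in Sham, and 20 rose and 7 fell in PM, and their mean level was 60.3% in Sham, 61.9% in Sham-OVA, 60.8% in PM and 61.3% in PM-OVA. Of 135 windows of 10 endothelial genes 48 rose and 21 fell in Sham, and 41 rose and 42 fell in PM. Of 80 windows of 10 fibroblast and smooth muscle genes 18 rose and 26 fell, and 11 rose and 35 fell. The mean levels of the epithelial, endothelial, fibroblast and liver lists overlapped between the groups in both comparisons. The 13 windows of 6 liver genes gave 2 and 3 calls, all lower. With libraries centred the counts higher and lower were 40 and 59 (Sham) and 38 and 57 (PM) for leukocyte windows, 41 and 2, and 43 and 4, for epithelial ones, 54 and 20, and 55 and 26, for endothelial ones, and 19 and 22, and 19 and 23, for fibroblast and smooth muscle ones. The mean over the 115 junction and barrier windows was 61.65% in Sham (61.16% to 62.55%), 62.26% in Sham-OVA (61.33% to 62.97%), 61.95% in PM (61.21% to 63.08%) and 61.78% in PM-OVA (60.87% to 62.49%), with the groups overlapping. The part of these other cells in the differences at the junction and barrier genes was not tested.

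**Figure D5:**
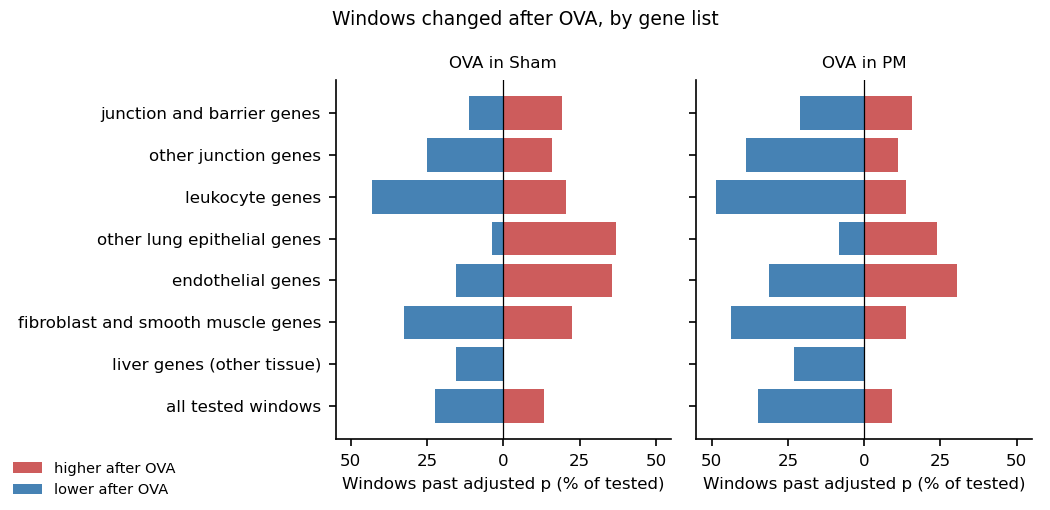
Bars give the share of the tested windows of each gene list, in percent, that passed the adjusted threshold after OVA in Sham (left) and in PM (right), higher to the right of 0 and lower to the left. The junction and barrier genes stand at 19.1% higher and 11.3% lower in Sham and 15.7% and 20.9% in PM, beside 13.3% and 22.3%, and 9.26% and 34.8%, for all tested windows.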

How the data were processed

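Per the labels, the authors trimmed reads with Trim Galore and mapped them to GRCm38 with DRAGEN, and per the study's methods they summarised the calls in SeqMonk. Each deposited value is the percent methylation of a window in a library, averaged by the authors over the CpGs of a window. No replicates were pooled, no count or coverage was used here, and 0 per-sample columns were left out. Lambda reads and RNA were not analysed here.

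Windows were read through the sample labels and located on GENCODE M21 (260681 of 260686 started and ended on a CpG of GRCm38). A window with at least 3 values in every group was tested, 259167 in all. The log2 ratio of methylated to unmethylated percent, with 1 point added to both, was fitted to the 4 groups over 29 libraries by limma's moderated test (limma 3.58.1 in R 4.3.3, with version 1.17.8 of the data.table package). Sequences and figures used Python 3.11.15 with pysam 0.24.0, pandas 2.3.3 and matplotlib 3.10.9. The code was tested on simulated data. Two-sided p-values were Benjamini-Hochberg adjusted over all tested windows at 0.05, and a DMR also needed 10 points. Contrasts were OVA in Sham and in PM, PM against Sham in unchallenged and in challenged offspring, and the interaction. Deviations of libraries with the same replicate number correlated at -0.0705 to 0.13 (median 0.0174, 42 pairs), and those of other pairs of groups' libraries at -0.133 to 0.134 (median -0.00214, 273 pairs). Since not every same-number pair was over 0.1, the numbers were not taken as pairs.

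Windows were named by rule, namely all DMRs, the window at each gene start, the window of each gene with the largest mean OVA difference, the smallest p of each maternal contrast, and at most 5 DMRs of the other junction genes. Members, lists and rule were chosen with earlier results of these data known. Where the text says so, a window was chosen after its values were seen, as were Epcam window 2, Cldn18 window 3 and Krt8 windows 2 and 4. Alternatives were the percent scale, an offset of 0.1, complete windows, centring of libraries, a fit of the compared groups only, a replicate block, other thresholds, and leaving out libraries.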

Additional observations from a re-analysis of the deposited data

Results flagged for a closer look

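In 11 of 136 sets of 7 or 8 libraries examined for the named windows, 1 library stood apart from the rest of its group by Dixon's criterion; chance marks about 1 in 20 such sets. In PM these were replicate 7 in Cdh1 window 18 (83.252%, the others 86.151% to 87.382%), replicate 2 in Cldn4 window 1 (68.174%, others 70.452% to 72.133%) and Cldn18 window 1 (83.883%, others 81.644% to 82.305%), and replicate 3 in Tjp1 window 1 (1.687%, others 0.1% to 0.731%) and Ocln window 4 (78.465%, others 80.77% to 82.081%). In PM-OVA they were replicate 8 in Cldn3 window 1 (10.237%, others 7.258% to 8.566%), replicate 2 in Cldn7 window 2 (15.522%, others 7.936% to 11.27%) and replicate 3 in Tjp1 window 29 (78.274%, others 71.32% to 73.978%). In Sham-OVA they were replicate 6 in Tjp1 window 38 (1.233%, others 0.476% to 0.776%) and replicate 5 in Tjp1 window 39 (14.484%, others 15.307% to 15.898%). In Sham it was replicate 1 in Tjp1 window 37 (4.001%, others 0.395% to 1.093%), the library with values in nearly all Y-chromosome windows.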

How the results depend on the processing

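With the adjusted p threshold at 0.000001, the one the study used, 0 of the 35 member windows for OVA in Sham and 1 of the 42 for OVA in PM passed, member DMRs in Sham fell to 0, and 13 and 29 windows of the other junction genes passed. This threshold is stricter by construction, and the share of all windows that pass it was not computed. With a minimum difference of 5 points the members held 8 DMRs in Sham and 10 in PM. The share of all windows at this limit was not computed, so these counts cannot be called many or few. Leaving out 1 library gave 32 to 39 member windows in Sham and 38 to 46 in PM, 2 to 3 and 0 to 0 member DMRs, 214 to 251 and 279 to 302 windows of the other junction genes, and 0 to 0 for both maternal contrasts and for the interaction; a count of 3 DMRs came without Sham-OVA replicate 7. The replicate block gave 35 and 38 member windows and 244 and 291 of the other junction genes, and 9 of 29 libraries correlated best with a library of their own number, a hint from the data and not from the design. Without both PM-OVA libraries whose names differ in form (replicates 7 and 8), 35 and 41 member windows passed. Among the windows carried through all alternatives, sign changes of the fitted estimate touched only windows with no call: Cdh1 window 1 and Tjp1 window 38 in Sham on the percent scale (adjusted p = 0.8902 and 0.9913, limma), Krt18 window 1 in Sham with libraries centred (0.9614), and, on leaving out 1 library, Epcam window 1 in PM (0.6589 to 0.9981) and in Sham (0.5969 to 0.9814), Cldn7 window 1 in PM (0.7127 to 0.9999) and Cdh1 window 1 in Sham (0.5751 to 0.9989). In points, other member windows with no call also turned sign with libraries centred, such as Epcam window 2 (-0.134 to 0.846 points) and Cdh1 window 3 (-0.184 to 0.795 points) in PM. Points and log2 ratios were centred separately, so a sign in points need not be that of the tested log2 ratio, least of all near 0%. Over the named windows 2385 alternative values kept direction and side of the threshold, 76 lost and 31 gained the call, and 24 changed sign; apart from those at a library left out or at the stricter threshold, the cause was not tested. The study describes high coverage per library, but the depth of each window is not in the values used, so the error of values near 0% is shown by the spread of libraries alone.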
